A study of Mus musculus with 12 samples.

Results

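Left ventricles that carried a CnAb1 transgene but had not been banded were compared with left ventricles of wild-type mice that had not been banded. The comparison took the 3 arrays titled as transgenic sham and the 3 titled as control sham, which are 6 of the 12 arrays of the study. CnAb1 is a splicing variant of the beta isoform of the calcineurin catalytic subunit, which the gene Ppp3cb encodes. All mice were of the C57/Bl6 strain; the transgenic mice overexpressed CnAb1 and the control mice were wild type. Sham hearts were not banded, and the other 6 arrays, 3 of each genotype, came from hearts after transverse aortic constriction (TAC), in which a band around the aorta raises the pressure against which the left ventricle works. Hearts were collected 21 days after either operation, and total RNA was purified from a section of the left ventricle and hybridised in a single colour (Cy3) to Agilent mouse arrays; a separate label gives the sham groups the time 0. The labels name neither the promoter that drives the transgene, nor the cell type in which it is active, nor the number of founder lines. Nor do they state that the arrays came from different animals, so p-values measure only the spread between these arrays, which may be technical.

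Values are log2 spot signals minus the 75th percentile of the same array, so a value of 0 is the signal at that percentile. A difference is the transgenic mean minus the wild-type mean on this scale, over 3 arrays in each group. The standard error given after it comes from the limma fit to all arrays of the study, those of banded hearts included. It is therefore not the spread of the sham arrays alone. A gene passed when its limma p-value, adjusted by Benjamini and Hochberg over all 25311 genes tested, was below 0.05. Genes that were not well above the array's background on any array of a group are called at background there. Wild-type sham arrays had a 75th percentile of 8.89 to 9.16 (log2) before scaling and transgenic sham arrays one of 9.40 to 9.42. The scaling removes this shift by subtracting more from every transgenic sham array. Medians with other scalings are given below for several lists, and the part of this step in small falls shared by a list was not tested. Transgenic sham array 2 stood apart: its negative control spots read 48.6 after background subtraction, where every other array read 15.4 to 21.0, and 37.0% of its probes were well above background, against 60.2% to 78.1%. That array shared slide 3 with wild-type sham arrays 1 and 2, the only slide that held both sham groups. Transgenic sham arrays 1 and 3 and wild-type sham array 3 each lay on a slide with no other sham array. Transgenic sham array 3 and wild-type sham array 3 were the only arrays of the study on their slides. A fit with slide as a fixed block, which gives each slide its own level, therefore draws nothing from those arrays. It also has fewer residual degrees of freedom than the main fit. Values that rest on transgenic sham array 2 are therefore also given without it.

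Calcineurin is a phosphatase that calcium and calmodulin activate, and in heart muscle it acts on NFAT transcription factors, whose target Rcan1 encodes a feedback inhibitor. CnAb1 has a C-terminal end unlike that of the other calcineurin variants. ATF4 is a transcription factor that cells make when amino acids run short or mitochondria or protein folding are disturbed, and it switches on genes for serine synthesis, amino acid uptake and tRNA charging. The serine pathway branches from glycolysis through Phgdh, Psat1 and Psph, and serine then feeds carbon units to folate through the mitochondrial enzymes Shmt2 and Mthfd2. The adult left ventricle takes most of its fuel from fatty acids, and it expresses the fast myosin heavy chain Myh6 far more than Myh7 in mice.

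Between the unbanded transgenic and wild-type ventricles a small part of the genes measured passed, and the size of that part depended on the filter and the fit. A few genes of serine and folate metabolism (4 of 24 measured) and of amino acid supply (5 of 17) rose, among them Mthfd2 by 71.8-fold and Asns by 39.2-fold, and the slow myosin heavy chain Myh7 rose 13.1-fold. Of the genes for fatty acid oxidation 13 of 33, and of those for chaperones and folding in the endoplasmic reticulum 6 of 22, fell by smaller amounts. Of 25311 genes, 359 (1.42%) passed, 195 higher (0.77%) and 164 lower (0.648%) in transgenic hearts. Changes of more than 2-fold were found for 146 of the genes that rose and 46 of those that fell. The median difference of all genes was -0.04. At an unadjusted limma p under 0.05 there were 4344 of the 25311 genes, higher and lower together, and 5122 with slide as a fixed block. Counts of list members at that level, given below, have these numbers as their background. Over all genes the 3 transgenic arrays did not overlap the 3 wild-type arrays for 22.4%, in 8.55% with all transgenic arrays higher and in 13.8% with all lower. The share of higher genes among those that passed was 54.3%, but it was 73.7% with quantile normalization, 74.0% with scaling to the median of each array and 81.7% with the percentile taken over probes well above background on all 12 arrays. Changes other than scaling moved it both ways, to 34.6% with a trended robust variance and 34.0% with genes well above background on all 12 arrays, and to 96.9% (63 higher and 2 lower) with slide as a fixed block. Without transgenic sham array 2, 119 genes passed (0.47%), 91 higher and 28 lower, and 83 of the higher and 24 of the lower genes had also passed with it. A fit to the 6 sham arrays alone passed 37 genes, 36 of them among the 359. The tissue was measured in bulk, where fewer cells of a type and less RNA per cell cannot be told apart.

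The calcineurin catalytic subunits were measured first as a check of the labels. Ppp3cb, the gene from which CnAb1 is spliced, measured 1.72, 1.64 and 1.66 on wild-type arrays 1, 2 and 3 and 1.48, 1.29 and 1.44 on transgenic arrays 1, 2 and 3. All transgenic arrays were below all wild-type arrays, and the difference of -0.27 ± 0.09 did not pass (limma adjusted p = 0.183). The sources used here do not give the position of its probe within the transcript, and a probe outside the part that the transgene carries would check nothing. Ppp3ca, the alpha catalytic subunit, differed by -0.04 ± 0.09, and Ppp3cc, the gamma catalytic subunit, by 0.09 ± 0.15. Ppp3r1, the regulatory subunit that binds calcium, differed by -0.27 ± 0.10, and none of the 3 passed.

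Rcan1, the inhibitor that calcineurin signalling induces, measured 1.68, 1.94 and 1.57 in wild-type and 1.31, 1.5 and 1.64 in transgenic hearts. The ranges overlapped, and the difference of -0.25 ± 0.19 did not pass (limma adjusted p = 0.557). Of 17 measured genes for calcineurin subunits, NFAT factors and Rcan proteins, limma passed 0, with 0 higher and 4 lower at an unadjusted p under 0.05. Their median difference was -0.04, the same as that of all genes, and 0.09 with median scaling.

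Among the 24 measured genes of serine synthesis and folate metabolism, 4 rose (Mthfd2, Phgdh, Psat1 and Aldh1l2), 0 fell and 20 did not pass, with a median difference of 0.20. Mthfd2, the mitochondrial enzyme that oxidises methylene folate, measured -4.19, -4.43 and -4.06 on the 3 wild-type arrays and 0.48, 2.22 and 3.12 on the transgenic arrays. Every transgenic array was far above every wild-type array, and the transgenic arrays themselves were spread widely, with array 1 lowest. Its difference of 6.17 ± 0.72, or 71.8-fold, passed (limma adjusted p = 0.00411), and without transgenic sham array 2 it was 6.02 (adjusted p = 0.0228). Its probe was well above background on 2 of the 3 wild-type arrays.

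Phgdh, the enzyme of the first step from glycolysis to serine, measured -2.13, -1.86 and -1.77 in wild-type and 1.42, 2.97 and 3.80 in transgenic hearts. It was 25.1-fold higher in transgenic hearts, with no overlap (4.65 ± 0.60, limma adjusted p = 0.00708). A second probe of the gene, which was not used in the test, gave 4.6. Psat1, the aminotransferase of the second step, measured -2.59, -2.42 and -2.49 in wild-type and -0.57, 0.75 and 2.46 in transgenic hearts. Its 3 transgenic arrays were all higher but widely spread (3.38 ± 0.64, limma adjusted p = 0.0371), the adjusted p was 0.0974 without transgenic sham array 2, and another Psat1 probe gave 1.35. Psph, the phosphatase that releases serine, differed by 0.89 ± 0.30 and did not pass (adjusted p = 0.167).

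Aldh1l2, the mitochondrial enzyme that oxidises formyl folate, rose by 2.47 ± 0.36 (limma adjusted p = 0.0148; 0.0585 without transgenic sham array 2). Shmt2, the serine hydroxymethyltransferase of mitochondria, differed by 0.36 and did not pass. Shmt1, its counterpart in the cytosol, measured -0.66, -0.73 and -0.75 in wild-type and -1.12, -1.49 and -1.12 in transgenic hearts, all lower (-0.53 ± 0.14), and did not pass (adjusted p = 0.108). Transgenic arrays did not overlap wild-type arrays for 14 of the 24 genes, 9 higher and 5 lower.

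Of 17 measured genes of amino acid transport and synthesis, 5 rose (Asns, Slc7a3, Aldh18a1, Slc38a1 and Slc1a5), 0 fell and 12 did not pass, with a median of 0.34. Asns, asparagine synthetase, measured -1.29, -0.71 and -1.10 in wild-type and 3.08, 4.19 and 5.51 in transgenic hearts. The groups were far apart on all arrays, and the difference of 5.29 ± 0.67, or 39.2-fold, passed with all arrays (limma adjusted p = 0.00623) and without transgenic sham array 2 (5.33, adjusted p = 0.0271). Slc7a3, a carrier of cationic amino acids, measured -5.91, -5.92 and -5.58 in wild-type and -2.48, -0.36 and 1.14 in transgenic hearts. It rose by 5.23 ± 1.02 (limma adjusted p = 0.0418; 0.119 without transgenic sham array 2), from a level that was well above background on 1 of 3 wild-type arrays.

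Slc38a1, a carrier of neutral amino acids, measured 0.43, 0.30 and 0.41 in wild-type and 1.83, 2.48 and 2.95 in transgenic hearts. The groups did not overlap (2.04 ± 0.42, limma adjusted p = 0.0493; 0.129 without transgenic sham array 2). Aldh18a1, which starts proline synthesis from glutamate, rose by 2.45 ± 0.41 (adjusted p = 0.0267; 0.0821 without that array), and Slc1a5, a glutamine carrier, by 0.92 ± 0.18 (adjusted p = 0.04; 0.0732 without it). Slc6a9, a glycine carrier, measured -1.01, -0.52 and -1.09 in wild-type and 0.44, 2.00 and 3.17 in transgenic hearts. It was higher on every transgenic array but did not pass (2.74 ± 0.61, adjusted p = 0.0588). Slc7a5, the large neutral amino acid carrier, overlapped between the groups at -0.30 ± 0.55.

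**Figure D1:**
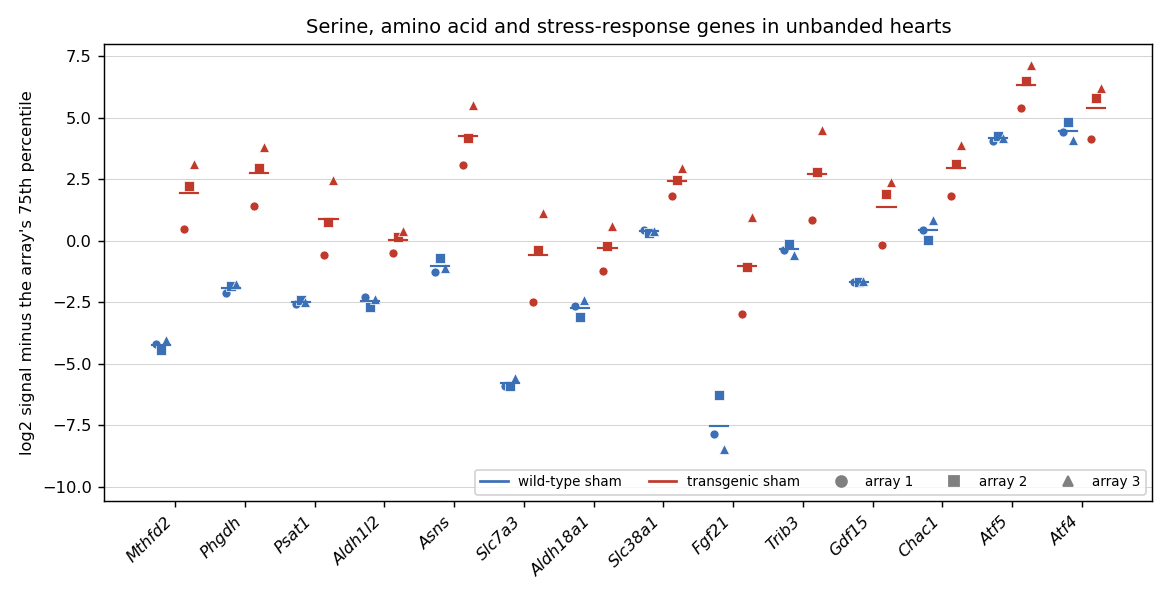
Scaled log2 signal (vertical axis) of 14 genes of serine, folate and amino acid metabolism and of the ATF4 response on the 3 wild-type sham (blue) and 3 transgenic sham (red) arrays; marker shapes give the array number and horizontal bars the group means. Mthfd2 lay between -4.43 and -4.06 on wild-type arrays and between 0.48 and 3.12 on transgenic arrays, while Atf4 overlapped between the groups.

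Of 22 measured genes of the ATF4 and integrated stress response, 2 rose (Fgf21 and Atf5), 1 fell (Vldlr) and 19 did not pass. At an unadjusted p under 0.05, 11 were higher and 1 lower, and the median difference was 0.54, or 0.41 without transgenic sham array 2. Fgf21, a secreted hormone of fasting and stress, measured -7.87, -6.28 and -8.48 in wild-type hearts, where it was at background on all 3 arrays, and -2.97, -1.07 and 0.95 in transgenic hearts. It was at least 19.8-fold higher in transgenic hearts (limma adjusted p = 0.0121; 0.0478 without transgenic sham array 2). Atf5, a transcription factor of the mitochondrial stress response, measured 4.04, 4.27 and 4.17 in wild-type and 5.38, 6.50 and 7.15 in transgenic hearts. It was 4.54-fold higher with no overlap (2.18 ± 0.42, limma adjusted p = 0.0406; 0.119 without transgenic sham array 2).

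Vldlr, a lipoprotein receptor on the list as a reported ATF4 target, measured 5.12, 5.06 and 5.02 in wild-type and 4.41, 4.5 and 4.37 in transgenic hearts. It moved the other way from Fgf21 and Atf5, by -0.64 ± 0.10 (limma adjusted p = 0.0223; 0.0539 without transgenic sham array 2). Atf4 itself measured 4.42, 4.82 and 4.11 in wild-type and 4.14, 5.79 and 6.20 in transgenic hearts. Transgenic array 1 lay within the wild-type range and arrays 2 and 3 above it, and the difference of 0.92 ± 0.47 did not pass (adjusted p = 0.349).

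Several known targets of ATF4 were higher on every transgenic array and did not pass. Trib3, a pseudokinase, measured -0.37, -0.12 and -0.59 in wild-type and 0.84, 2.80 and 4.5 in transgenic hearts (3.07 ± 0.77, limma adjusted p = 0.0896). Gdf15, a secreted stress hormone, measured -1.66, -1.68 and -1.66 in wild-type and -0.18, 1.89 and 2.39 in transgenic hearts (3.03 ± 0.76, adjusted p = 0.0903). Both were lowest on transgenic array 1 and highest on transgenic array 3. Chac1, which breaks down glutathione, measured 0.44, 0.03 and 0.85 in wild-type and 1.84, 3.13 and 3.89 in transgenic hearts (2.51 ± 0.60, adjusted p = 0.0747). Nupr1 differed by 1.71 ± 0.53 and Cebpg by 1.21 ± 0.35, while Ddit3, the factor also called CHOP, overlapped between the groups at 0.38 ± 0.29.

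The transgenic arrays were ordered alike for many of these genes, with array 1 lowest and array 3 highest. That order held for 15 of the 22 ATF4 genes, 12 of the 17 amino acid genes and 12 of the 24 serine and folate genes. It was not particular to them: it held for 17.4% of all genes, but also for 43 of 76 mitochondrial and 40 of 68 cytosolic ribosomal protein genes and 21 of 37 tRNA synthetases. Among the 194 genes that rose and were measured on all transgenic arrays, 73 (37.6%) had it. Replicate numbers carry no order of their own, and the 3 arrays lay on different slides, so spread between samples and between slides cannot be told apart here. On slide 3, which held transgenic array 2 and wild-type arrays 1 and 2, the differences were 6.53 for Mthfd2, 4.97 for Phgdh, 5.19 for Asns and 3.26 for Psat1. With slide as a fixed block these values were 5.55, 4.26, 4.55 and 2.75 and none passed (limma adjusted p from 0.116 to 0.15). Under that block limma passed 0 genes of the serine, amino acid and ATF4 lists, with 7, 7 and 8 higher and 3, 1 and 1 lower at an unadjusted p under 0.05.

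Of 37 measured aminoacyl-tRNA synthetases, which load amino acids on their tRNAs, 1 rose (Mars1), 0 fell and 36 did not pass, and the median was -0.02, or 0.11 with median scaling. Mars1, the methionine enzyme of the cytosol, measured 0.80, 0.85 and 0.77 in wild-type and 1.36, 1.88 and 2.36 in transgenic hearts. It rose by 1.06 ± 0.22 (limma adjusted p = 0.0486; 0.124 without transgenic sham array 2). Other enzymes of the cytosol that were near this size and did not pass were Gars at 1.11, Cars at 1.10, Aars at 1.06, Nars at 1.04, Sars at 1.01 and Iars at 0.94. The mitochondrial enzyme Cars2 differed by -0.46 and did not pass either.

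Promoters of 5 genes described above, 4 of them with higher values in transgenic hearts and 1, Vldlr, that fell, are shown because they hold the letters of the C/EBP-ATF response element, TGATGNAA, on either strand. Each window runs from 250 bases before to 50 bases after the annotated start, is written 5′ to 3′ in the direction of the gene, comes from RefSeq on GRCm38.p6, and has the matching letters in capitals. The windows are chr6:7693160-7693459 on the minus strand for Asns, chr7:45615441-45615740 on the minus strand for Fgf21, chr2:119350992-119351291 on the plus strand for Chac1, chr2:152344011-152344310 on the minus strand for Trib3 and chr19:27216770-27217069 on the plus strand for Vldlr.
Asns: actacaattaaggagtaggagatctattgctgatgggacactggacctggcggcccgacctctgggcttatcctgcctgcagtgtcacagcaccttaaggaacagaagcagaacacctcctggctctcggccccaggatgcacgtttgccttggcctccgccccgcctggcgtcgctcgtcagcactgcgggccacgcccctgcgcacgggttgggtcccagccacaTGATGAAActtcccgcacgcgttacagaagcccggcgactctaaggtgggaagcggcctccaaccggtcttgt
Fgf21: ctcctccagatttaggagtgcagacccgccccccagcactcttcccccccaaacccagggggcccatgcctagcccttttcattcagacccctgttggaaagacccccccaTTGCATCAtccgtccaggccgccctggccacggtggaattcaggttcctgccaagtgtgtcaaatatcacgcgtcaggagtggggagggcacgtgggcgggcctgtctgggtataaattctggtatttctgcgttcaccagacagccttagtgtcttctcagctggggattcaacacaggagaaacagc
Chac1: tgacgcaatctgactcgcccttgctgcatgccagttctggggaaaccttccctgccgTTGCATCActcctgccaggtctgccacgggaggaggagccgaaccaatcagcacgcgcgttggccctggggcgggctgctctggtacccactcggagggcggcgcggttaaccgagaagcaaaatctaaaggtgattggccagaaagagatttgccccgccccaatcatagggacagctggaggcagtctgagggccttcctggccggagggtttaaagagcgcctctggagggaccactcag
Trib3: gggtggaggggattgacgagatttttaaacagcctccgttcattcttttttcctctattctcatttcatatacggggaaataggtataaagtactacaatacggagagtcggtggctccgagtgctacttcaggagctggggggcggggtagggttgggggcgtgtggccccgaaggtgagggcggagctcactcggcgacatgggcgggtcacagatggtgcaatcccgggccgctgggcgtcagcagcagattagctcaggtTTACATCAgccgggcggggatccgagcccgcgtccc
Vldlr: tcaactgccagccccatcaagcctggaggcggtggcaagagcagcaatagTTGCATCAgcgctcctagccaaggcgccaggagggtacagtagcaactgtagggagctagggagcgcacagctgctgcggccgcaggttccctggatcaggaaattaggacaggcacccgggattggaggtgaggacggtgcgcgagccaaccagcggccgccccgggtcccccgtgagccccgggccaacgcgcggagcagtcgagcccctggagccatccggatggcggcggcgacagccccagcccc

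The match began at base 228 of the 300 in Asns, at base 112 in Fgf21, at base 58 in Chac1, at base 265 in Trib3 and at base 51 in Vldlr, on the gene's own strand in Asns and on the opposite strand in the other 4. A match was also held by Nupr1 (1.71), Atf3 (0.36), Slc1a4 (-0.25), Got1 (-0.27) and Herpud1 (-0.32), none of which passed. The 5 tRNA synthetases with a match differed by 0.46 to 1.11 and did not pass either. Of all 32851 promoters listed by RefSeq 3.97% held a match, and of the measured genes with a promoter there 3.27% did. Among genes with a promoter in the table, a match was found for 7 of 21 ATF4 genes, 3 of 12 amino acid genes, 5 of 27 tRNA synthetases and 1 of 19 serine and folate genes. The ATF4 list holds genes reported as ATF4 targets, so its share is not a result of these data. Promoters of the genes that passed held a match in 4 of 108 higher genes (3.70%) and 4 of 99 lower genes (4.04%). Phgdh, Psat1 and Mthfd2 had no match in this window, which says only that these letters are not in it.

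Genes for chaperones and folding enzymes of the endoplasmic reticulum moved the other way from the amino acid genes. Of 22 measured genes of this list, 0 rose, 6 fell (Canx, Hspa5, Manf, Hsp90b1, Calr and Pdia6) and 16 did not pass, with a median of -0.32. Canx, the membrane chaperone calnexin, measured 4.38, 4.41 and 4.4 in wild-type and 3.65, 3.44 and 3.65 in transgenic hearts. It was 1.76-fold lower with no overlap (-0.81 ± 0.10, limma adjusted p = 0.00672; 0.0275 without transgenic sham array 2). Hspa5, the chaperone BiP, measured 5.78, 5.94 and 5.70 in wild-type and 5.01, 5.04 and 5.15 in transgenic hearts. All transgenic arrays were lower (-0.74 ± 0.12, limma adjusted p = 0.0216), and without transgenic sham array 2 the adjusted p was 0.0732.

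Manf, a secreted factor of stressed cells, fell by 0.67 ± 0.12, and Hsp90b1, the chaperone GRP94, by 0.54 ± 0.11. Calr, the luminal calcium-binding chaperone calreticulin, and Pdia6, a disulfide isomerase, each fell by 0.51 on the log2 scale. None of these 4 passed without transgenic sham array 2 (adjusted p from 0.0756 to 0.119). The list's median stayed below 0 with quantile normalization, at -0.26, and with median scaling, at -0.19.

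A separate set of genes was higher in transgenic hearts by almost the same amount on every array. Dlg4, a scaffold protein best known from synapses, measured -4.13, -3.67 and -4.02 in wild-type and 2.18, 2.20 and 2.09 in transgenic hearts. The 3 transgenic values were nearly equal, and the difference of 6.09 ± 0.19 (68.2-fold) had the smallest adjusted p among the genes named here (limma adjusted p = 8.56e-07). Its probe was well above background on 2 of 3 wild-type arrays. Gna15, a G protein subunit mostly known from blood cells, measured -1.5, -1.58 and -1.67 in wild-type and 2.95, 3.17 and 3.44 in transgenic hearts. It was 27.3-fold higher (4.77 ± 0.17, limma adjusted p = 1.61e-06).

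Tmem72, a membrane protein gene, was at background on all wild-type sham arrays and measured -0.92, -0.38 and -0.60 in transgenic hearts, at least 26.2-fold higher (limma adjusted p = 3.79e-05). Pced1b was 28.3-fold, Hspb9, a small heat shock protein known from testis, 27.7-fold, and Plppr4, a membrane protein known from neurons, 15.3-fold higher; a second Plppr4 probe was well above background on 0 of the 6 sham arrays. Rtkn was 4.88-fold higher, and Mkrn1, a ubiquitin ligase, 7.56-fold on its tested probe, while another Mkrn1 probe gave -0.10. Pced1b, Hspb9, Plppr4, Gna15, Mkrn1, Rtkn and the lower gene Dhrs4 passed under all 23 settings tried, replicates left out included. Tdg (3.41 ± 0.19, without transgenic array 2, where its spot was an outlier) and Tenm4 (4.29 ± 0.71) also passed, but their other probes gave -0.22 and 0.24 for Tdg and -1.06 for Tenm4. Tenm4 had a wider standard error than Dlg4 and Gna15 and did not pass under 8 of the 23 settings, so it does not belong to the even set.

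For Dlg4, Gna15, Pced1b, Hspb9 and Plppr4 the difference was also present in banded hearts, whose 6 arrays are separate from the 6 sham arrays. Between transgenic and wild-type TAC hearts, Dlg4 differed by 5.67, Gna15 by 5.06, Pced1b by 4.83, Hspb9 by 5.14 and Plppr4 by 4.73, and all passed there. Mthfd2 differed by 2.06, Asns by 2.26, Phgdh by 2.08 and Psat1 by 0.90 after TAC, and none of these 4 passed (adjusted p from 0.0824 to 0.452). The test of whether the genotype difference itself differed between TAC and sham passed for 6.81% of all genes, 3.58% with a more positive and 3.23% with a more negative value after TAC. It passed for Mthfd2 (-4.10, limma adjusted p = 0.043) but not for Asns, Phgdh or Psat1, so for them a change with banding was not shown. For Mkrn1 the test gave adjusted p = 0.988 and for Pced1b 0.994. Over all genes, 1028 (4.06%) passed for genotype after TAC, and 96 of them had passed in sham hearts, which is 26.7% of the sham genes and 9.34% of the TAC genes. The direction was the same for 68 of the 96, 62 higher and 6 lower, and opposite for 28.

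**Figure D2:**
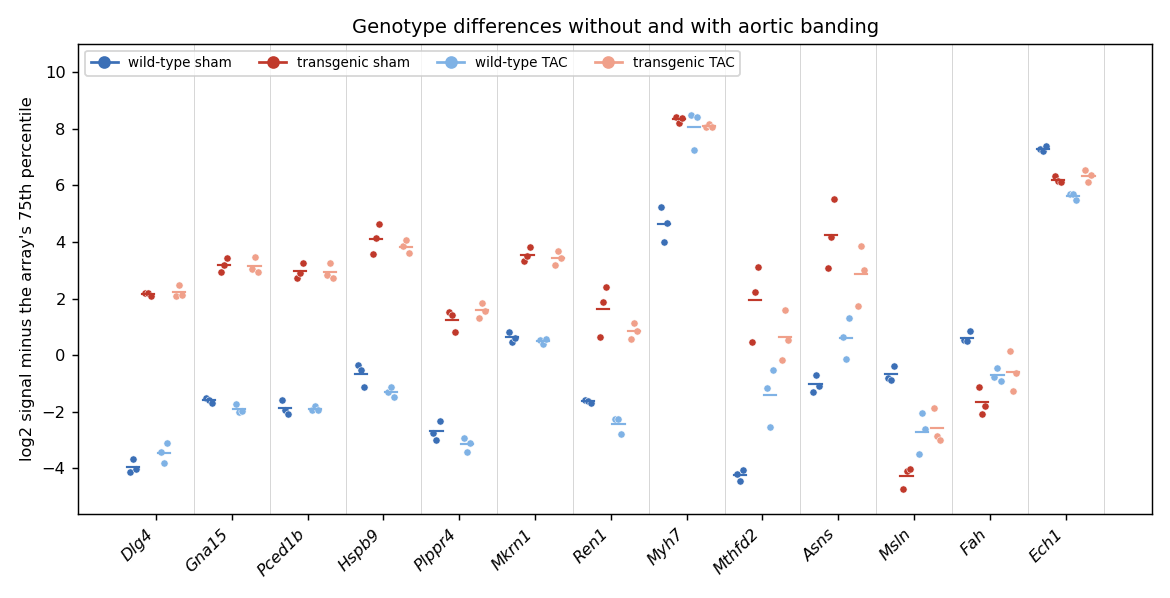
Scaled log2 signal (vertical axis) of 13 genes on all 12 arrays; points are arrays, bars are group means, blue is wild-type and red transgenic, with sham in dark and TAC in light shades. Dlg4, Gna15, Pced1b, Hspb9, Plppr4 and Mkrn1 were separated by genotype with either operation, whereas Myh7, Msln and Fah were separated in sham hearts and overlapped after TAC.

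Myh7, the slow myosin heavy chain that mouse ventricles express before birth and under load, measured 5.22, 4.0 and 4.66 in wild-type and 8.43, 8.21 and 8.39 in transgenic sham hearts. Every transgenic array was higher than every wild-type array, and the difference of 3.71 ± 0.36 (13.1-fold) passed with all arrays (limma adjusted p = 0.0014) and without transgenic sham array 2 (adjusted p = 0.00759). On the slide that held both sham groups the difference was 3.59, and with slide as a fixed block it was 3.31 and did not pass (adjusted p = 0.075). After TAC, wild-type hearts measured 8.50, 7.25 and 8.43, and the genotypes differed by 0.04 (adjusted p = 0.972).

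The other genes of the fetal and hypertrophy list did not follow Myh7. Of its 12 measured members 1 rose (Myh7), 0 fell and 11 did not pass, with a median of -0.38. Nppa, atrial natriuretic peptide, measured 5.47, 6.02 and 5.31 in wild-type and 7.02, 6.87 and 6.79 in transgenic hearts. It was higher on all transgenic arrays but did not pass (1.29 ± 0.35, limma adjusted p = 0.104). Nppb, the B-type peptide, measured 5.26, 5.03 and 4.77 in wild-type and 4.63, 4.49 and 4.36 in transgenic hearts. Its transgenic arrays were all lower than the wild-type arrays, and it did not pass (-0.52 ± 0.40, adjusted p = 0.547). Acta1, skeletal alpha actin, overlapped between the groups at -1.10 ± 0.72, and Myh6 measured 8.95, 9.0 and 8.95 in wild-type and 8.63, 8.50 and 8.59 in transgenic hearts (-0.39 ± 0.11, adjusted p = 0.109).

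Hormone and adrenergic genes of the ventricle changed in both directions. Ren1, which encodes renin, measured -1.56, -1.60 and -1.69 in wild-type and 0.63, 1.90 and 2.40 in transgenic hearts. It was 9.60-fold higher with no overlap (3.26 ± 0.38, limma adjusted p = 0.00411; 0.0228 without transgenic sham array 2), and it differed by 3.28 after TAC. Adra1a, the alpha 1A adrenergic receptor, measured -2.49, -2.28 and -2.61 in wild-type and -4.26, -4.05 and -4.96 in transgenic hearts. It was 3.90-fold lower with no overlap (-1.96 ± 0.25, limma adjusted p = 0.00609; 0.0115 without transgenic sham array 2). Its difference after TAC was 0.24, and the test between the operations passed (2.20, adjusted p = 0.0148).

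Dbh, which makes noradrenaline and was not on the list, fell 4.30-fold, from 1.09, 0.97 and 0.96 to -0.96, -0.94 and -1.40 (-2.10 ± 0.38, limma adjusted p = 0.0334; 0.0856 without transgenic sham array 2). Dbh is a member of the Schwann and nerve marker list, in which 1 of 9 measured genes fell and 0 rose, with a median of -0.26. The part of nerve cells in its fall was not tested. Agt, angiotensinogen, measured -1.64, -0.76 and -1.65 in wild-type and -2.39, -3.22 and -2.25 in transgenic hearts. It was lower on all transgenic arrays and did not pass (-1.27 ± 0.31, adjusted p = 0.0797). Adrb1, the beta 1 receptor, differed by -0.27 ± 0.13 and did not pass. Of 22 measured genes of the renin-angiotensin, endothelin and adrenergic list, 1 rose (Ren1), 1 fell (Adra1a) and 20 did not pass.

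Genes for the uptake and oxidation of fatty acids fell. Of 33 measured genes, 13 passed as lower and 0 as higher, and the median difference was -0.57. For 28 of the 33 all transgenic arrays were below all wild-type arrays, and for 1, Cpt1a, the carnitine transferase isoform of liver, all were above. Lpl, which frees fatty acids from lipoproteins, measured 7.87, 7.88 and 7.87 in wild-type and 7.10, 6.97 and 6.90 in transgenic hearts. It was 1.84-fold lower (-0.88 ± 0.11, limma adjusted p = 0.00523; 0.0262 without transgenic sham array 2).

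Ech1, an isomerase that prepares unsaturated fatty acids for oxidation, measured 7.28, 7.23 and 7.40 in wild-type and 6.32, 6.15 and 6.13 in transgenic hearts. It was 2.15-fold lower with no overlap (-1.10 ± 0.13, limma adjusted p = 0.00392; 0.0215 without transgenic sham array 2). The others that fell included Hadha and Hadh, of later steps of the oxidation cycle, Acads and Acadm, acyl-CoA dehydrogenases, Decr1, Etfdh, Acaa2, Eci1, Echs1 and the carnitine carrier Slc25a20, by 0.57 to 1.01 on the log2 scale.

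Without transgenic sham array 2, 3 of the 13 passed, Lpl and Ech1 among them, and the list's median was -0.55. The median lay between -0.62 and -0.42 over all 23 settings. On the slide with both sham groups it was -0.60. With slide as a fixed block it was -0.52, but limma passed 0 of the 33 genes, with 23 lower and 0 higher at an unadjusted p under 0.05, Ech1 at -1.03 (adjusted p = 0.117) and Lpl at -0.83 (adjusted p = 0.12). Cardiomyocyte markers were also lower, with mean levels of 7.55 to 7.56 on wild-type and 7.14 to 7.21 on transgenic arrays and a median difference of -0.41 (-0.09 with quantile normalization), and their part in the fatty acid, respiratory and calcium results was not tested. After TAC the median of the same genes was 0.44, with 5 higher in transgenic hearts (Ech1 by 0.70), and for Ech1 the test between the operations passed (1.81, adjusted p = 0.0112). The carnitine transferase of muscle, Cpt1b, differed by -0.41 and the uptake protein Cd36 by -0.31 in sham hearts, without passing.

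Respiratory chain genes were lower by smaller amounts that depended on the scaling. Of 37 measured complex I subunits 1 fell (Ndufb2), and of 42 subunits of complexes II to V 3 fell (Sdhc, Sdhb and Cox6c), with 0 higher in both lists. All transgenic arrays lay below all wild-type arrays for 34 of the 37 and 39 of the 42. Both medians were -0.37, but -0.15 and -0.10 with quantile normalization, against -0.42 for the fatty acid genes. Sdhc, of complex II, measured 6.42, 6.48 and 6.48 in wild-type and 5.96, 5.85 and 5.76 in transgenic hearts. Its difference of -0.60 ± 0.10 passed (limma adjusted p = 0.0258; 0.0767 without transgenic sham array 2).

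Of 24 measured genes of the tricarboxylic acid cycle and pyruvate oxidation 1 fell, Idh2, the mitochondrial isocitrate dehydrogenase (-0.72 ± 0.14, limma adjusted p = 0.0377; 0.118 without transgenic sham array 2), with a median of -0.36. Mitochondrial ribosomal proteins had a median of -0.26, and limma passed 0 of 76, with 31 lower and 0 higher at an unadjusted p under 0.05. Ppargc1a, a coactivator of mitochondrial genes, measured 5.0, 5.50 and 4.43 in wild-type and 3.39, 3.77 and 4.56 in transgenic hearts. The groups overlapped through transgenic array 3, and the difference of -1.08 ± 0.36 did not pass (adjusted p = 0.172). Glycolysis genes had 0 of 22 past the threshold of limma, with 2 higher and 11 lower at an unadjusted p under 0.05, and a median of -0.27 that was -0.08 with quantile normalization.

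**Figure D3:**
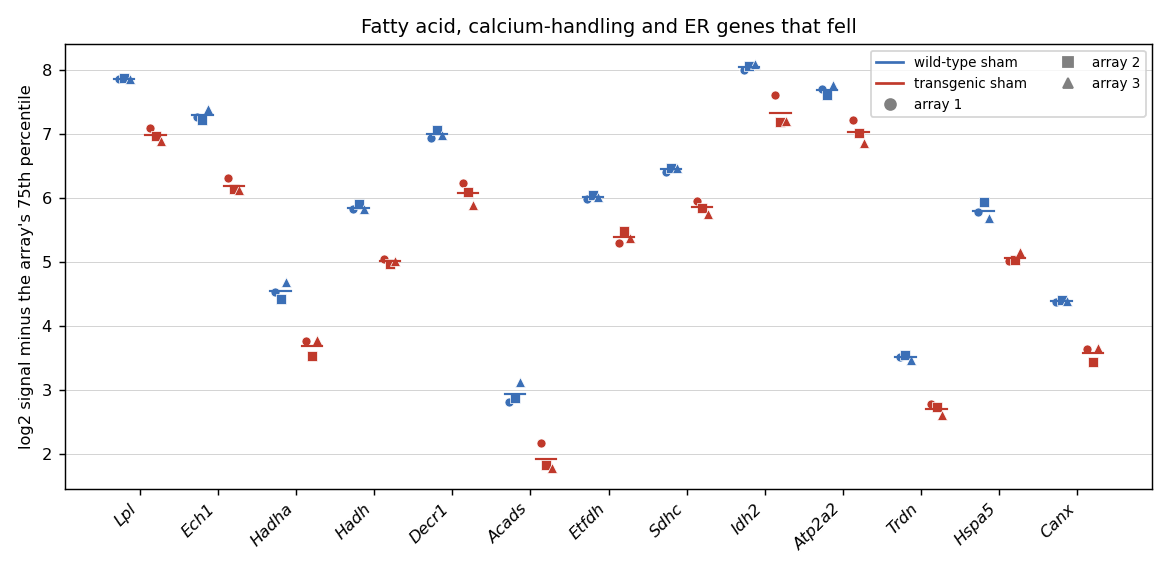
Scaled log2 signal (vertical axis) of 13 genes that passed as lower in transgenic hearts, on the 3 wild-type sham (blue) and 3 transgenic sham (red) arrays; marker shapes give the array number and bars the group means. For each gene shown the arrays of the groups did not overlap, as for Lpl at 7.87 to 7.88 against 6.90 to 7.10.

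Genes of calcium cycling in the sarcoplasmic reticulum, the store from which each heartbeat draws calcium, were also lower. Of 15 measured, 2 fell (Trdn and Atp2a2), 0 rose and 13 did not pass, with a median of -0.36, or -0.29 with quantile normalization. Atp2a2, the pump that refills the store, measured 7.71, 7.61 and 7.78 in wild-type and 7.23, 7.02 and 6.87 in transgenic hearts. It was 1.58-fold lower (-0.66 ± 0.13, limma adjusted p = 0.0406), a second probe gave -0.67, and the adjusted p was 0.114 without transgenic sham array 2. Trdn, which anchors the calcium release channel, measured 3.51, 3.55 and 3.48 in wild-type and 2.79, 2.74 and 2.61 in transgenic hearts. It fell by 0.80 ± 0.10 on its tested probe (adjusted p = 0.00643; 0.0264 without transgenic sham array 2), while another probe gave 0.20.

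Hrc, a calcium-binding protein of the store, differed by -0.77 ± 0.16 and did not pass (limma adjusted p = 0.0550). Of 20 measured potassium and sodium channel genes, 2 fell (Kcnj2, of the resting potential, by 0.61, and Kcnv2 by 1.71 on the log2 scale) and 0 rose. Scn4b, a sodium channel beta subunit, measured 3.00, 2.71 and 3.1 in wild-type and 0.45, -0.64 and -1.12 in transgenic hearts. Every transgenic array was far below the wild-type arrays, yet it did not pass (-3.37 ± 0.78, adjusted p = 0.0681). Of 20 measured sarcomere and Z-disc genes 1 fell, Ldb3 (-0.75 ± 0.15 on its tested probe and -0.08 on another). Their median of -0.34 was -0.09 with quantile normalization.

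Matrix genes were shifted upward without passing in most cases. Of 45 measured collagens and matrix proteins 1 rose (Lamc1), 1 fell (Lama2) and 43 did not pass, with 25 higher and 1 lower at an unadjusted p under 0.05 and a median of 0.58. With slide as a fixed block the median was 0.50, and limma passed 0 of the 45. At an unadjusted p under 0.05, 7 were then higher and 4 lower. Lamc1, the gamma 1 laminin chain of basement membranes, measured 3.23, 3.28 and 3.26 in wild-type and 3.98, 3.95 and 3.73 in transgenic hearts. It rose by 0.63 ± 0.12 (limma adjusted p = 0.0349; 0.108 without transgenic sham array 2). Lama2, the alpha 2 laminin chain of muscle, fell by 0.59 ± 0.11 on its tested probe (adjusted p = 0.0406; 0.0900 without that array), and another probe gave 0.16.

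Cilp, a matrix protein of cartilage and fibrosis, measured -2.21, -1.72 and -2.68 in wild-type and 0.09, -0.28 and -0.18 in transgenic hearts. It was higher on all transgenic arrays and did not pass (2.08 ± 0.47, limma adjusted p = 0.0622). Postn, periostin, measured -1.22, -0.66 and -1.54 in wild-type and 0.15, 0.14 and 0.28 in transgenic hearts (1.33 ± 0.40, adjusted p = 0.136). Col1a1, a chain of fibrillar collagen, measured 1.53, 1.71 and 1.23 in wild-type and 1.97, 2.64 and 2.41 in transgenic hearts (0.85 ± 0.35, adjusted p = 0.255). The groups did not overlap for any of these 3 genes. Fibroblast markers, at 1.39 to 1.92 on wild-type and 1.94 to 2.20 on transgenic arrays, had a median difference of 0.44, and their part in the matrix result was not tested. After TAC, where the median of the list was -1.57 and 32 of its genes were lower in transgenic hearts, Cilp differed by -3.03, Postn by -3.1 and Col1a1 by -2.66.

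Of 28 measured matrix enzymes and inhibitors 1 rose, Adamts8, a secreted protease (1.15 ± 0.23, limma adjusted p = 0.0456; 0.119 without transgenic sham array 2), with a median of 0.35. Another Adamts8 probe, well above background on 5 of the 6 sham arrays against 4 for the tested probe, gave -0.09. Cell cycle genes had a median of 0.56, and limma passed 0 of 22, with 6 higher and 0 lower at an unadjusted p under 0.05. Growth factor and ErbB genes included 1 of 25 that fell, Hbegf, a ligand of the EGF receptor, from 1.29, 1.19 and 0.83 to -0.07, -0.17 and 0.22 (-1.11 ± 0.22, adjusted p = 0.0421; 0.125 without transgenic sham array 2). Sod3, the extracellular superoxide dismutase, rose by 0.79 ± 0.15 (adjusted p = 0.0371; 0.0997 without that array), as 1 of 33 antioxidant genes. For inflammatory cytokines and chemokines limma passed 0 of 24, with 0 at an unadjusted p under 0.05.

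**Figure D4:**
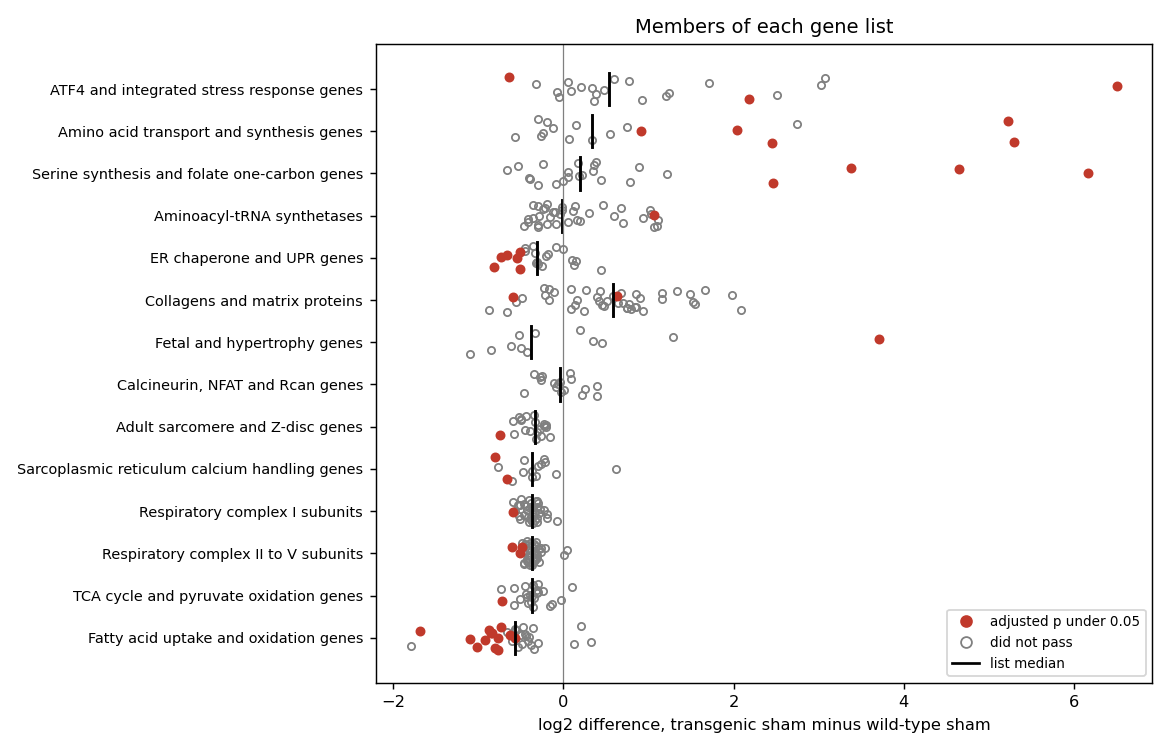
Log2 difference between transgenic and wild-type sham hearts (horizontal axis) for each measured member of 14 gene lists; filled red points passed at an adjusted p under 0.05, open points did not, and vertical bars are list medians. Serine, amino acid and ATF4 genes held a few members at the far right, Fgf21 farthest, whose fitted value carries no exact size because it was at background in wild-type hearts, while fatty acid genes clustered around a median of -0.57.

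Among genes that passed, some of the larger falls were of genes outside the lists above. Msln, the mesothelial surface protein mesothelin, measured -0.79, -0.87 and -0.38 in wild-type and -4.73, -4.10 and -4.01 in transgenic hearts. It was 12.1-fold lower with no overlap (-3.60 ± 0.40, limma adjusted p = 0.00351; 0.0155 without transgenic sham array 2, on which its spot was not well above background). The mesothelial and epicardial markers as a list had mean levels of -3.64 to -2.93 on wild-type arrays and of -4.62, -3.13 and -4.76 on transgenic arrays. Transgenic array 2 lay within the wild-type range of that list. Only 1 of the 7 measured markers was well above background on all 12 arrays. Transgenic array 2 also had the highest negative control signal, which limits its value for this list. The list's median difference of -0.80 became 0.45 with slide as a fixed block, and the part of mesothelial cells in the fall of Msln was not tested.

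Fah, the last enzyme of tyrosine breakdown, measured 0.53, 0.50 and 0.85 in wild-type and -1.13, -2.07 and -1.81 in transgenic hearts. It was 4.91-fold lower (-2.30 ± 0.34, limma adjusted p = 0.0159; 0.0620 without transgenic sham array 2). Amy1, an amylase gene, was 6.63-fold lower (-2.73 ± 0.43, adjusted p = 0.0192; 0.0690 without that array), and Amy2a5, a near copy whose signal may be shared, fell by 2.19 on the log2 scale on its tested probe and by 0.78 on a dimmer one. Dhrs4, a peroxisomal reductase, measured 2.11, 2.04 and 2.18 in wild-type and 0.35, -0.06 and 0.12 in transgenic hearts. It was 3.91-fold lower (-1.97 ± 0.14, adjusted p = 0.000181; 0.00114 without transgenic sham array 2). Plekhh1 fell by 3.03 ± 0.52 and Urah, a urate pathway enzyme, by 2.79 ± 0.41, and neither passed without transgenic sham array 2 (adjusted p = 0.0756 and 0.0557).

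Marker lists of cell types were read as mean levels on each array. All 13 cardiomyocyte markers were well above background on all 12 arrays, and limma passed 0 of them in sham hearts, with 9 lower and 0 higher at an unadjusted p under 0.05. Atrial markers were at -1.99 to -1.71 on wild-type and -1.41 to -1.37 on transgenic arrays, and skeletal muscle markers, at -2.30 to -1.96 and -2.63 to -1.71, overlapped. Of 12 fibroblast markers limma passed 0, with 6 higher and 0 lower at an unadjusted p under 0.05. Endothelial markers were at 2.00 to 2.38 and 2.29 to 2.40, and macrophage markers at -0.63 to -0.08 and -0.20 to -0.11, so both lists overlapped between the groups. Neutrophil markers were at -2.34 to -1.13 on wild-type and -1.27 to -1.09 on transgenic arrays. Their member S100a8, a protein of granulocytes, measured -1.72, 0.75 and -2.31 in wild-type and 0.68, 0.66 and 2.15 in transgenic hearts, overlapping through wild-type array 2. Erythroid markers were lowest on transgenic array 2, at 2.22 against 3.60 to 4.27 on wild-type arrays. B cell markers were lowest on transgenic array 3, at -5.35 against -3.94 to -3.89 on wild-type arrays. Of the 8 measured B cell markers 0 were well above background on all 12 arrays, which limits these levels.

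**Figure D5:**
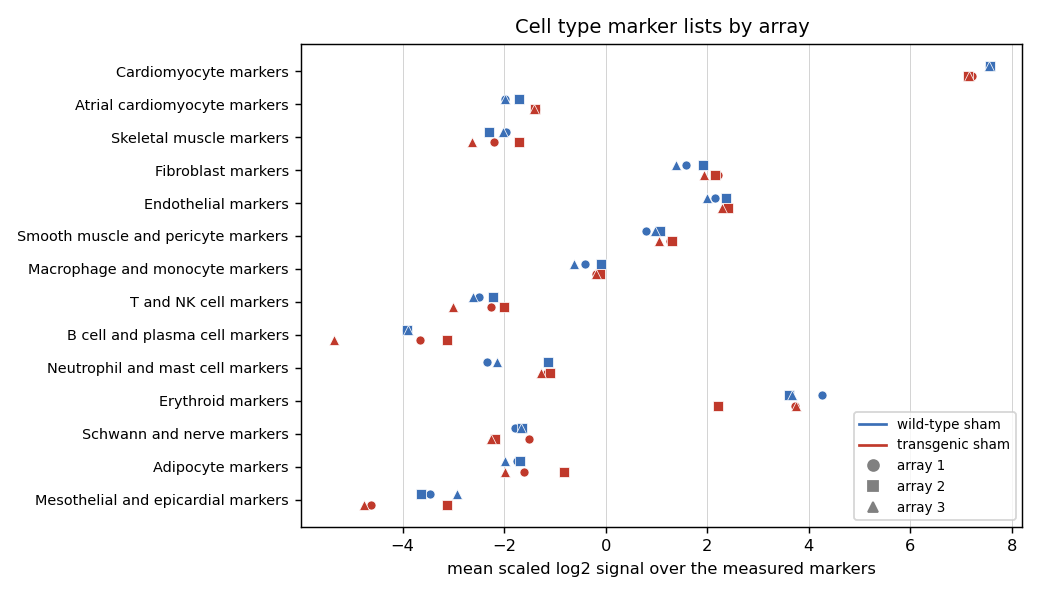
Mean scaled log2 signal (horizontal axis) over the measured markers of 14 cell types on the 3 wild-type sham (blue) and 3 transgenic sham (red) arrays, with marker shapes for the array number. Cardiomyocyte markers separated the groups, at 7.55 to 7.56 against 7.14 to 7.21, and endothelial and macrophage markers overlapped.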

How the data were processed

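Spot signals were read from 12 Agilent scanner files. They are intensity values that Feature Extraction 10.7.3.1 had background-subtracted and detrended but not scaled between arrays, per the file headers. The deposited value table is in log2 units, per its own values, and served as an alternative. The submitters' processing notes name RMA; the sources used here do not give its role. Of 43020 non-control spots, 107 to 286 outliers per array were left out, repeated spots of 1 probe were averaged on the log2 scale, and arrays were scaled by subtracting their 75th percentile. Probes were named through accessions with a GRCm38.p6 gene table (26424 of 39429 probes); 13005 kept their probe name. The array annotation names mm9, so gene positions are given only for RefSeq promoters. The brightest probe per gene was tested where at least 3 of 12 arrays were well above background, leaving 25311 genes, 16647 of them named. No pair of arrays held identical values (0 pairs).

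All 12 arrays entered one limma 3.58.1 model (R 4.3.3) with a mean per group and 8 residual degrees of freedom; tests were two-sided. The steps were tested on simulated data. For a group at background, the bound took the dimmest spot that was well above background on an array, or the gene's own signal if brighter. Named genes are the largest changes in each direction that passed without overlap, core genes, members of described lists with the smallest p, and genes chosen after their values were seen. The members and lists were chosen with earlier results of these data known. Alternatives were quantile normalization, median scaling, another percentile, normexp on median signals with an offset of 50, the deposited table, other filters, outliers kept, the mean over probes, a trended robust variance, array weights, a replicate block, slide as a fixed or random block, sham arrays alone, and each array left out. The number of arrays limits the precision. Some genes in the rule are not reported here.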

Additional observations from a re-analysis of the deposited data

Results flagged for a closer look

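The test of whether the genotype difference itself differed between TAC and sham hearts passed in limma for the genes below, which have the largest such values in each direction among genes with a symbol that passed in sham hearts (clone and predicted names left out). Values are the difference after TAC minus that in sham hearts, and both differences use their own 6 arrays. The genes were chosen for their difference in sham hearts, which this value subtracts, so the choice favours values of the opposite sign. Among genes that had risen in unbanded transgenic hearts it was -4.10 for Mthfd2, -3.68 for Myh7, -3.45 for Iqgap3, -3.38 for Lhfpl2, -3.09 for Loxl4, a collagen cross-linking enzyme, -2.97 for Adamts8, -2.84 for Gask1b and -2.66 for Dyrk3. It was -3.26 for Spag5 and -2.72 for Bhlhe22, both at background in the wild-type sham group, so that these values carry no exact size. Among genes that had fallen it was 3.75 for Msln, 3.1 for Amy1, 2.82 for Ano10, 2.79 for Kcnv2, 2.55 for Amy2a5, 2.42 for Fah, 2.36 for Ttll1, 2.20 for Adra1a and 2.15 for Tbc1d10c. Other probes of Adamts8, Ttll1, Ano10 and Amy2a5 did not give the same value in sham hearts. Among the risen genes, the tested probe of Loxl4 was well above background on 3 of the 6 sham arrays and that of Adamts8 on 4, which limits their values. Transgenic sham arrays were not well above background for some of the fallen genes: for Msln, Fah, Amy1 and Adra1a 2 of 3 were.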

How the results depend on the processing

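Against 359 genes for genotype in sham hearts, limma passed 224 with quantile normalization, 204 with median scaling, 46 with normexp, 129 with no filter, 1072 when every one of the 12 arrays had to be well above background, 1076 when the 6 sham arrays had to be (chosen after seeing the data), 948 with a trended robust variance, 228 with array weights, 126 with the replicate block, 65 with slide as a fixed block (22 of them among the 359) and 37 with the sham arrays alone. Leaving out an array gave 84 to 640: 84 without wild-type sham array 1, 99 without 2, 85 without 3, 640 without transgenic sham array 1, 119 without 2 and 287 without 3. For genotype after TAC (1028 genes) the counts were 457 with median scaling, 42 with normexp, 356 with no filter, 2447 with either all-array filter, 2186 with the trended variance, 4439 with array weights, 423 with the replicate block, 11 with slide as a fixed block and 97 with the TAC arrays alone. For the interaction (1724 genes) they were 902 with quantile normalization, 619 with median scaling, 0 with normexp (2811 at an unadjusted p under 0.05), 522 with no filter, 3159 and 3163 with the all-array filters, 2897 with the trended variance, 2890 with array weights, 676 with the replicate block, 0 with slide as a fixed block (5569 at an unadjusted p under 0.05), and 162 to 2184 with an array left out. The deposited table gave 364 for sham hearts. The cause of these moves was not tested, except that the filters changed the number of genes tested and the fits alone used fewer arrays. Slide as a fixed block drew nothing from transgenic sham array 3 and wild-type sham array 3, and it left fewer residual degrees of freedom. Of 88 named genes that passed in sham hearts, 0 turned direction under any setting, all 88 passed with the deposited table, 17 with the sham arrays alone and 11 with slide as a fixed block. Of 53 list medians 22 changed sign under at least 1 setting, 10 of them under median scaling, which moved the median of all genes to 0.08, and 8 with slide as a fixed block. They include Akt and mTOR (0.011), mitochondrial biogenesis (0.020) and autophagy and proteasome genes (0.0012) under median scaling, and tubulin genes (-0.16) and mesothelial markers (0.45) with slide as a fixed block. Same-numbered arrays did not deviate together in sham hearts (correlations -0.11, 0.069 and 0.0018). With 3 arrays in each group, on several slides, this cannot exclude that the replicate numbers pair them. Signals near background on transgenic sham array 2 limit its values for dim genes.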

Other observations

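Single genes of further lists passed in unbanded transgenic hearts. Of 16 measured genes of the creatine kinase and adenine nucleotide shuttle 2 fell and 0 rose, with a median of -0.31, or -0.06 with quantile normalization. Ak1, adenylate kinase of muscle, measured 7.12, 7.08 and 7.15 in wild-type and 6.59, 6.59 and 6.51 in transgenic hearts, with no overlap (-0.55 ± 0.10, limma adjusted p = 0.0362; 0.0916 without transgenic sham array 2). Adssl1, the muscle enzyme that makes adenylosuccinate, fell by 0.71 ± 0.12 (adjusted p = 0.0281; 0.0887 without that array). Bag3, a cochaperone of the Z-disc, measured 5.44, 5.58 and 5.39 in wild-type and 4.85, 4.90 and 4.83 in transgenic hearts. It was the single heat shock gene of 17 that passed, in a list whose median of -0.20 was -0.02 with quantile normalization (-0.61 ± 0.09, adjusted p = 0.0157; 0.0484 without that array). Spg7, a protease of the inner mitochondrial membrane, was the single gene of 14 mitochondrial chaperones and proteases that fell (-0.63 ± 0.11, adjusted p = 0.0309; 0.0974 without that array).

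Clu, the secreted chaperone clusterin, fell in both unbanded and banded transgenic hearts. It measured 7.22, 7.23 and 7.36 in wild-type and 6.23, 6.28 and 6.28 in transgenic sham hearts (-1.01 ± 0.13, limma adjusted p = 0.00792; 0.0305 without transgenic sham array 2), and it differed by -0.98 after TAC (adjusted p = 0.0067). Rpl3 was the single cytosolic ribosomal protein gene of 68 that passed, at 4.66, 4.77 and 4.49 in wild-type and 5.59, 5.45 and 6.08 in transgenic hearts (1.06 ± 0.21, adjusted p = 0.0406; 0.069 without that array). Limma passed 0 of 26 TGF-beta and activin genes (6 higher and 0 lower at an unadjusted p under 0.05), 0 of 16 clock genes (1 and 1), 0 of 26 interferon and antigen-processing genes (0 and 1) and 0 of 17 complement genes (1 and 2).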
